A study of Mus musculus with 59 samples.

Results

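The cytosolic ribosomal protein genes are described here in primary mammary tumors of mice given propylparaben, methylparaben or vehicle. Genes were taken by symbol: Rpl or Rps followed by a number and at most one of the letters a, x or l, together with Rplp0, Rplp1, Rplp2 and Rpsa, without pseudogenes. This gave 83 of the 55421 genes in the deposited table, 51 of the large and 32 of the small ribosomal subunit. A total of 7 of them are named as a copy of another gene (Rpl3l, Rpl6l, Rpl10l, Rpl32l, Rpl39l, Rps4l and Rps27l), and the other 76 hold most of the core proteins.

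RNA was sequenced from 59 tumors: propylparaben (n = 20), methylparaben (n = 20) and vehicle (n = 19). All mice, the vehicle mice included, carried 1 copy of the MMTV-PyMT transgene, written PyMT (+/-), in the line B6.FVB-Tg(MMTV-PyVT)634Mul/LellJ, where a mammary tumor virus promoter drives the polyoma middle T oncogene in the mammary epithelium. The 2 parabens are the propyl and the methyl ester of para-hydroxybenzoic acid and serve as preservatives. The labels state neither dose, age nor time of exposure, nor whether each tumor came from its own mouse, so that p-values measure the spread between these tumors. Each library held 1166502 to 2032789 reads on genes, the deposited values are CPM (reads scaled to a common library total) further adjusted by 1 factor per library, and none of the 6 markers of mammary tumor epithelium was at 0 in any group.

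Ribosomal proteins assemble with ribosomal RNA in the nucleolus, and a cell needs them in about equal numbers, so that their transcripts are among the most abundant and most evenly controlled of a growing cell. Most of these transcripts start with a C followed by a run of pyrimidines, the terminal oligopyrimidine (TOP) tract, through which the kinase mTOR and the RNA-binding protein Larp1 control their translation and stability. The oncogene MYC raises transcription of ribosomal protein and ribosome assembly genes. Free Rpl5 and Rpl11, when assembly fails, bind Mdm2 and so stabilise p53.

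The start sites are shown because the tract is the feature that the family is known to share. RefSeq start windows (GRCm38.p6) were at hand for 61 of the 83 genes. Of these, 14 of 61 (23.0%) started at the annotated base with a C followed by at least 4 C or T, against 3.01% of 27025 genes in the same table. Each line below gives 30 bases before the annotated start and 20 bases from it, 5′ to 3′, with the tract in capitals. Of the 14 genes with a tract, 8 are shown, followed by 3 of the copies, whose windows hold no tract at the annotated base; of the other copies, Rpl32l is among the 14.
Rps6 (chr4:86857348-86857397, minus strand): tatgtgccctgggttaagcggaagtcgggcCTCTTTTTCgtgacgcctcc
Rps18 (chr17:33955646-33955695, minus strand): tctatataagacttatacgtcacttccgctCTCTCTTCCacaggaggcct
Rps10 (chr17:27635225-27635274, minus strand): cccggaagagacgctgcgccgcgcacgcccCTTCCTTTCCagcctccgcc
Rps27 (chr3:90213629-90213678, minus strand): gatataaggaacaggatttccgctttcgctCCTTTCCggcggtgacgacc
Rpl35 (chr2:39005112-39005161, minus strand): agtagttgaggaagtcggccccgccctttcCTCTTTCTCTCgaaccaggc
Rpl15 (chr14:18270967-18271016, minus strand): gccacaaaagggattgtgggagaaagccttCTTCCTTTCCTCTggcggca
Rpl38 (chr11:114668550-114668599, plus strand): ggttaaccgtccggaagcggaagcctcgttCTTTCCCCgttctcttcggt
Rpl28 (chr7:4792935-4792984, plus strand): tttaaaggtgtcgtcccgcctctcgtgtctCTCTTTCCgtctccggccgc
Rps27l (chr9:66946056-66946105, plus strand): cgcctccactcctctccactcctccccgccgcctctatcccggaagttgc
Rpl10l (chr12:66284382-66284431, minus strand): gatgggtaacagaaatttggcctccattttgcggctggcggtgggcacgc
Rpl39l (chr16:10170198-10170247, plus strand): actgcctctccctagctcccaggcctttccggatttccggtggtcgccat
The hexamer CGGAAG, the core that ETS factors such as GABP bind, was searched on both strands of the 250 bases before the start. It stood in 32 of 61 genes (52.5%), against 15.3% of all genes. TATAAA, searched the same way, stood in 4 of 61 (6.56%), against 14.3% of all genes. The table's start can lie some bases from the base used in these tumors. In every gene shown with a tract, the run of pyrimidines goes on before the annotated start by at least 1 base. The same holds for Rpl35a and Rpl14, which are not shown.

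Ribosomal protein transcripts spanned a wide range per length, where length is all exonic bases annotated for a gene over all its transcripts. That length was 2431 bases for Rpl10a and 499 for Rplp1, so the order per kilobase depends in part on the annotation. Rplp1, an acidic protein of the stalk that recruits elongation factors, had the highest mean level over the 59 tumors, 2100 per kilobase of exon (CPM-scaled value divided by exonic length). Rpl23a, Rps21, Rps29 and Rpl32 came next, at 948, 892, 791 and 544 per kilobase. The lowest of the core genes were Rpl24 at 0.129, Rpl10a at 7.62, Rps6 at 9.98 and Rps10 at 10.9 per kilobase. Rpl10l, which takes over from Rpl10 in mouse male germ cells, had no read in any of the 59 libraries, Rpl6l had 39 reads and Rpl24 had 18 reads in all.

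Several of the low genes share much of their sequence with other genes. Of the 50-base windows in the coding transcripts of Rps6, the small subunit protein phosphorylated by S6 kinase, 84.6% also stand in other genes, 14 in all, each a pseudogene. The share was 62.6% for Rpl10a and 81.7% for Rpl24, and 484 exonic bases of Rpl24 lie in Gm28037 and 475 of Rps10 in Gm49804 on the same strand. Reads that match several places or several genes are not counted for any of them, and the size of this loss was not tested. The relation is loose: over the 76 genes that are no copies, Spearman's rho between shared windows and level per kilobase was -0.19, and Rpl23a was high with 85.7% of its windows shared. Levels of different genes are therefore not set against each other further.

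**Figure D1:**
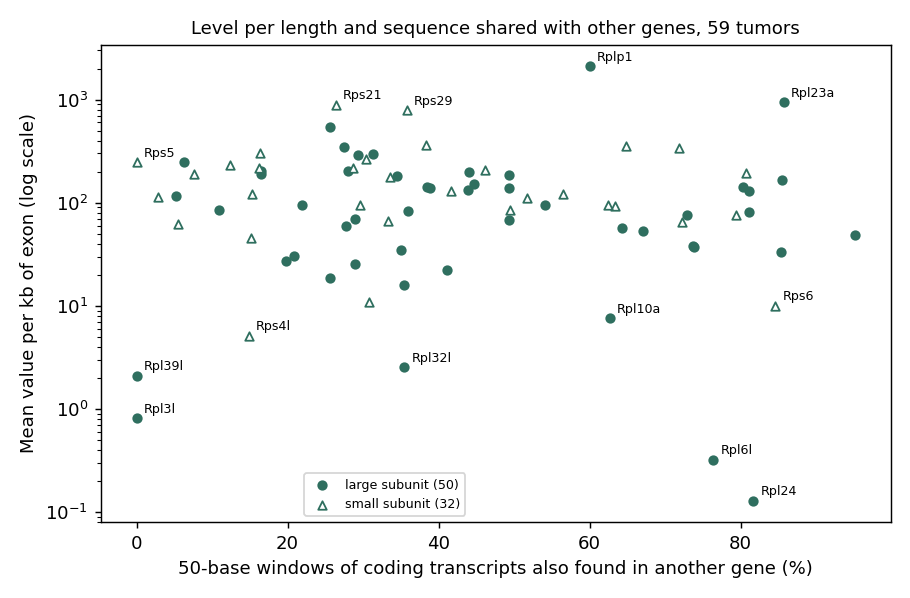
Mean value per kilobase of exon over 59 tumors (log scale) against the share of 50-base windows of each gene's coding transcripts that also stand in another gene, for 82 genes (Rpl10l, at 0, is not drawn). Rplp1 lies highest at 2100 per kilobase with 60.0% of its windows shared, and Rpl24 lowest at 0.129 with 81.7%.

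As a group, ribosomal protein transcripts had a lower median share of the reads in both paraben groups than in vehicle tumors over all libraries. This is a description with no test, and 1 vehicle tumor lay far above all others. The 83 genes took 2.55, 3.11 and 3.63% of the reads on genes in propylparaben tumors (lowest, median and highest). The share was 2.07, 3.13 and 4.06% in methylparaben tumors, against 2.78, 3.38 and 5.75% in vehicle tumors. All 3 groups overlapped, and vehicle replicates 1, 14 and 8 were the highest at 5.75, 4.50 and 4.25%. Without the 7 libraries named in the next paragraph the median shares were 3.10% in propylparaben, 3.13% in methylparaben and 3.09% in vehicle tumors. The vehicle median was then no longer the highest. In bulk tissue, fewer cells of a type and less RNA per cell cannot be told apart.

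The order found over all libraries also stood in the mean log2 level of the 76 genes with a mean value of at least 10. It averaged 7.59 ± 0.15 in propylparaben tumors, 7.64 ± 0.15 in methylparaben tumors and 7.77 ± 0.30 in vehicle tumors (SD, n = 20, 20 and 19). Vehicle replicate 1 held the highest value of the 59 libraries for 70 of the 76 genes, and vehicle replicate 6 the lowest for 22 of them. Without vehicle replicates 7, 8, 10, 13, 14 and 19 and propylparaben replicate 1, which lie at one end of the first principal component of all genes, it averaged 7.57 ± 0.13 in propylparaben, 7.64 ± 0.15 in methylparaben and 7.71 ± 0.33 in vehicle tumors (SD, n = 19, 20 and 13). The medians were 7.61, 7.64 and 7.73 over all libraries of propylparaben, methylparaben and vehicle, and 7.59, 7.64 and 7.64 without those 7. That component had a Pearson r of -0.64 with this mean level itself. The end left out was chosen as the one with high levels of mitosis genes. Leaving out those 7 is therefore not a check apart from the level.

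**Figure D2:**
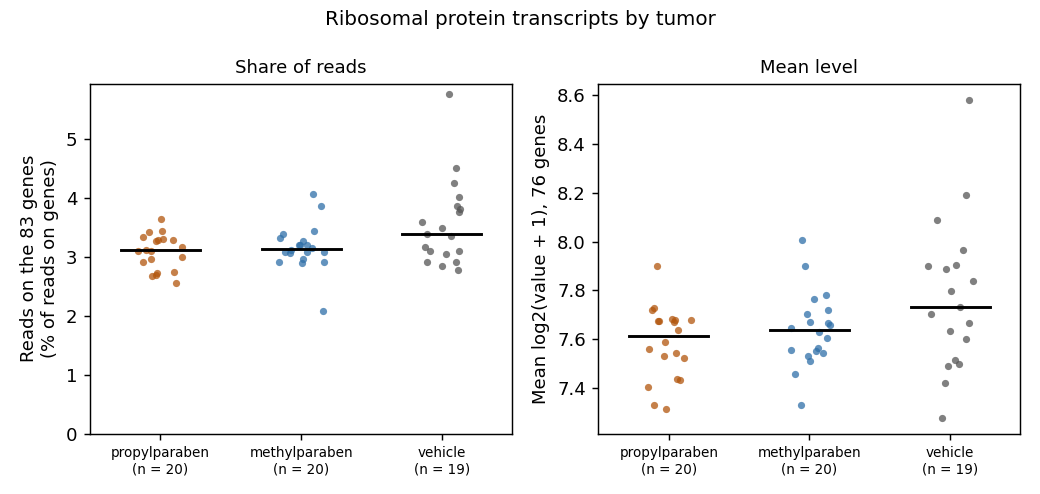
Left, the share of reads on genes that fell on the 83 ribosomal protein genes (%), and right, the mean of log2(value + 1) over 76 of them, each point 1 tumor and each bar the median. The median shares are 3.11% for propylparaben, 3.13% for methylparaben and 3.38% for vehicle, and the highest point, at 5.75%, is vehicle replicate 1.

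Propylparaben against vehicle was tested gene by gene with limma on log2(value + 1) in all 14487 genes with a mean of at least 1, of which 80 are ribosomal protein genes. None of the 80 passed an adjusted p of 0.05 (Benjamini-Hochberg over all genes tested), where 4 of all genes did (0.0276%). The fold change was below 0 for 75 of 80, against 50.2% of all genes, and 55 of 80 had an unadjusted p under 0.05 in that direction, against 9.49% of all genes. In the other direction none of the 80 did, against 8.92% of all genes. The median log2 fold change was -0.17, that is 11.3% lower, beside 0.00 over all genes. The genes vary together between tumors, so these counts are not 80 separate observations.

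The 5 lower genes with the smallest p did not pass and are named as such. Rps20, of the head of the small subunit, had 639, 718 and 858 in propylparaben tumors, against 646, 817 and 1330 in vehicle tumors (lowest, median and highest CPM-scaled value). The groups overlapped, and 18 of 20 propylparaben tumors lay below the vehicle median (log2 fold change -0.21, SE 0.06, limma adjusted p = 0.077). Rpl26, a large subunit protein that also binds p53 mRNA, had 209, 263 and 357 in propylparaben tumors, against 233, 289 and 513 in vehicle tumors. Its groups overlapped too, with 17 of 20 propylparaben tumors below the vehicle median (log2 fold change -0.26, SE 0.07, limma adjusted p = 0.077). Rpl6 averaged 166 ± 21.2 in propylparaben tumors and 198 ± 42.9 in vehicle tumors (SD, n = 20 and 19). Rpl8, which lies at the peptidyl transferase centre, averaged 315 ± 39.3 in propylparaben tumors and 370.1 ± 70.9 in vehicle tumors. Rpl12, at the base of the stalk, had a log2 fold change of -0.33 (SE 0.10, limma adjusted p = 0.081) and lay below the vehicle median in 19 of 20 propylparaben tumors.

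The few genes above 0 were mostly the copies, at low levels. Rps4l, a copy of the X-linked Rps4x, averaged 4.74 ± 2.88 in propylparaben tumors and 3.61 ± 2.24 in vehicle tumors (log2 fold change 0.34, SE 0.22, limma adjusted p = 0.42). Rpl10, a protein joined late to the large subunit, had a log2 fold change of 0.09 (SE 0.13), and Rpl3l, Rpl39l and Rpl32l had 0.10, 0.06 and 0.06, each with an SE of at least 0.17. Rps27l, a copy that p53 induces, did not sit with these: its log2 fold change was -0.33 (SE 0.12, limma adjusted p = 0.14), and its medians were 149.9 in propylparaben and 196 in vehicle tumors.

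Methylparaben against vehicle ran the same way with a smaller shift. None of the 80 genes passed the adjusted p, where 191 of all genes did (1.32%). The fold change was below 0 for 72 of 80, against 48.8% of all genes, and 30 of 80 had an unadjusted p under 0.05 in that direction, against 10.3% of all genes. In the other direction 1 did, against 11.8% of all genes. The median log2 fold change was -0.13, or 8.41% lower, beside 0.01 over all genes. Both comparisons share the vehicle tumors, so that the second is no repeat of the first.

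Rpl36 had 15.7, 26.7 and 41.9 in methylparaben tumors, against 24.6, 35.1 and 68.1 in vehicle tumors. The groups overlapped, with 15 of 20 methylparaben tumors below the vehicle median (log2 fold change -0.37, SE 0.11, limma adjusted p = 0.064). Rpl13a, which also serves in a complex that silences inflammatory mRNAs, had 20.6, 37.5 and 68.2 in methylparaben tumors, against 32.1, 51.4 and 163 in vehicle tumors. A single vehicle tumor, replicate 1, lay far above the rest, and 16 of 20 methylparaben tumors lay below the vehicle median (log2 fold change -0.43, SE 0.13, limma adjusted p = 0.065). Of the transcript of Rpl13a, 41.1% of windows stand in another gene, and 81.1% of that of Rpl36. Rpl41, the shortest ribosomal protein, had a log2 fold change of -0.34 (SE 0.10, limma adjusted p = 0.066), and Rps21 of -0.21 (SE 0.07, limma adjusted p = 0.083).

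Rps4l was the gene farthest above 0, with 1.83, 5.29 and 12.6 in methylparaben tumors, against 0.411, 3.64 and 9.02 in vehicle tumors. The ranges overlapped, 15 of 20 methylparaben tumors lay above the vehicle median, and it did not pass (log2 fold change 0.67, SE 0.22, limma adjusted p = 0.077). Rpl3l, which replaces Rpl3 in striated muscle, had its highest value, 26.6, in methylparaben replicate 5, against medians of 0.431 in methylparaben and 0.563 in vehicle tumors. That library also had the highest mean log2 level of 8 skeletal muscle markers, 9.56. Rps6, Rpl10 and Rpl23 had log2 fold changes of 0.11, 0.07 and 0.02, within 1 SE of 0.

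**Figure D3:**
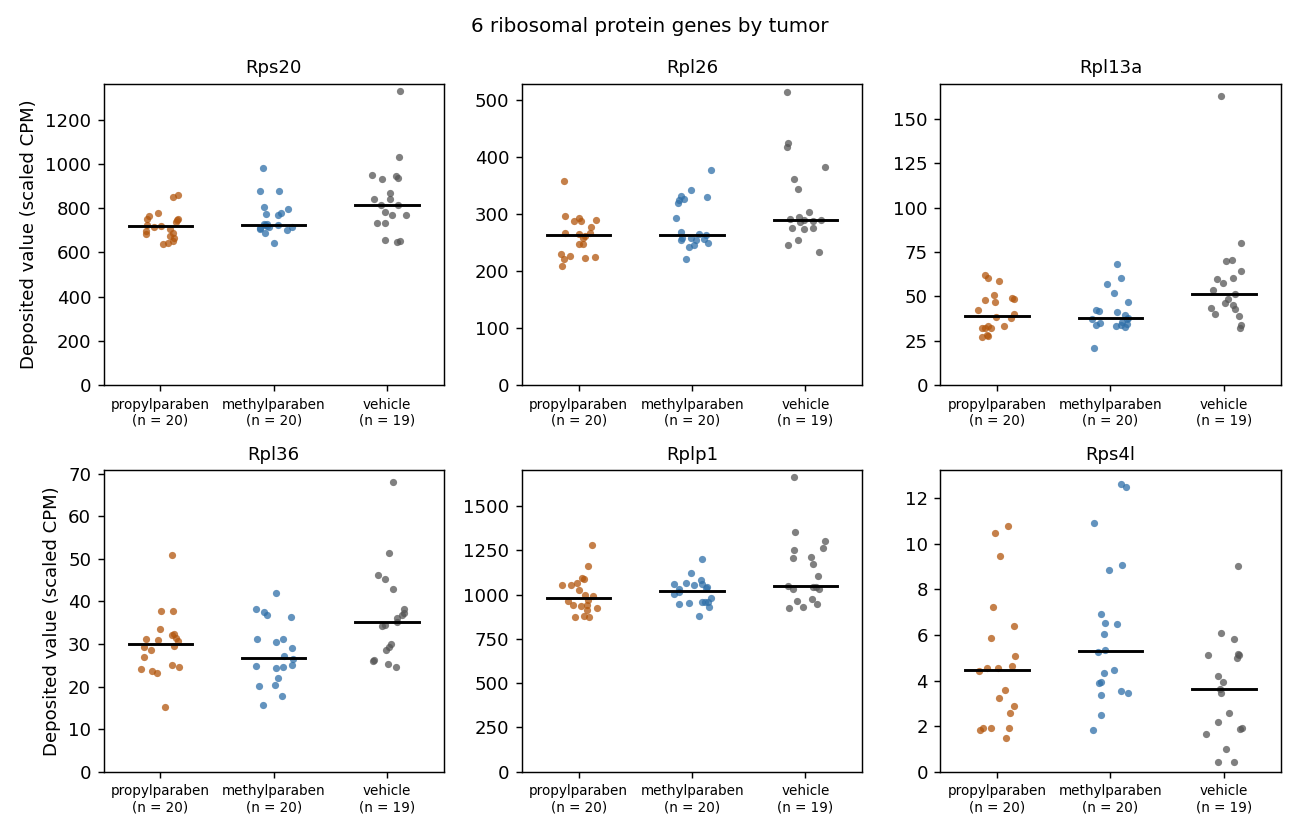
CPM-scaled values of 6 ribosomal protein genes, each point 1 tumor and each bar the median, with propylparaben (n = 20), methylparaben (n = 20) and vehicle (n = 19). Groups overlap in every panel: Rps20 has medians of 718 for propylparaben, 726 for methylparaben and 817 for vehicle, and for Rpl13a vehicle replicate 1, at 163, lies far above the rest.

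Read counts with other tools passed a few genes. DESeq2 called 8 of 80 lower with propylparaben, against 0.973% of all genes called lower, namely Rps20, Rpl26, Rpl6, Rpl8, Rpl12, Rpl13a, Rps21 and Rpsa. It called 4 of 80 lower with methylparaben, against 2.56% of all genes. The edgeR quasi-likelihood test called 0 with propylparaben, against 0.138% of all genes, and 4 with methylparaben, against 2.37%. The 4 genes were the same in both tools: Rps21, Rpl36, Rpl13a and Rpl41.

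Propylparaben and methylparaben differ by the length of the ester's alkyl chain, and their doses are not given, so that the values stand side by side. None of the 80 genes passed the adjusted p, where none of all genes did (0%), and none had an unadjusted p under 0.05, against 0.787% of all genes above 0 and 1.36% below 0. The edgeR test and DESeq2 called 0 of 80 as well, against 0.138 and 0% of all genes called lower. The median log2 fold change was -0.05, beside -0.01 over all genes, and 71 of 80 lay below 0, against 53.4% of all genes. Rpl23a had the smallest p, with 589.6, 761 and 956 in propylparaben tumors, against 705, 798 and 966 in methylparaben tumors (log2 fold change -0.09, SE 0.05, limma adjusted p = 1.00). The 95% interval of the difference took in 0 for all 76 genes with a mean of at least 10, and the intervals reached from -0.65 for Rps6 to 0.32 for Rpl36. A difference of that size is not excluded for those genes.

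**Figure D4:**
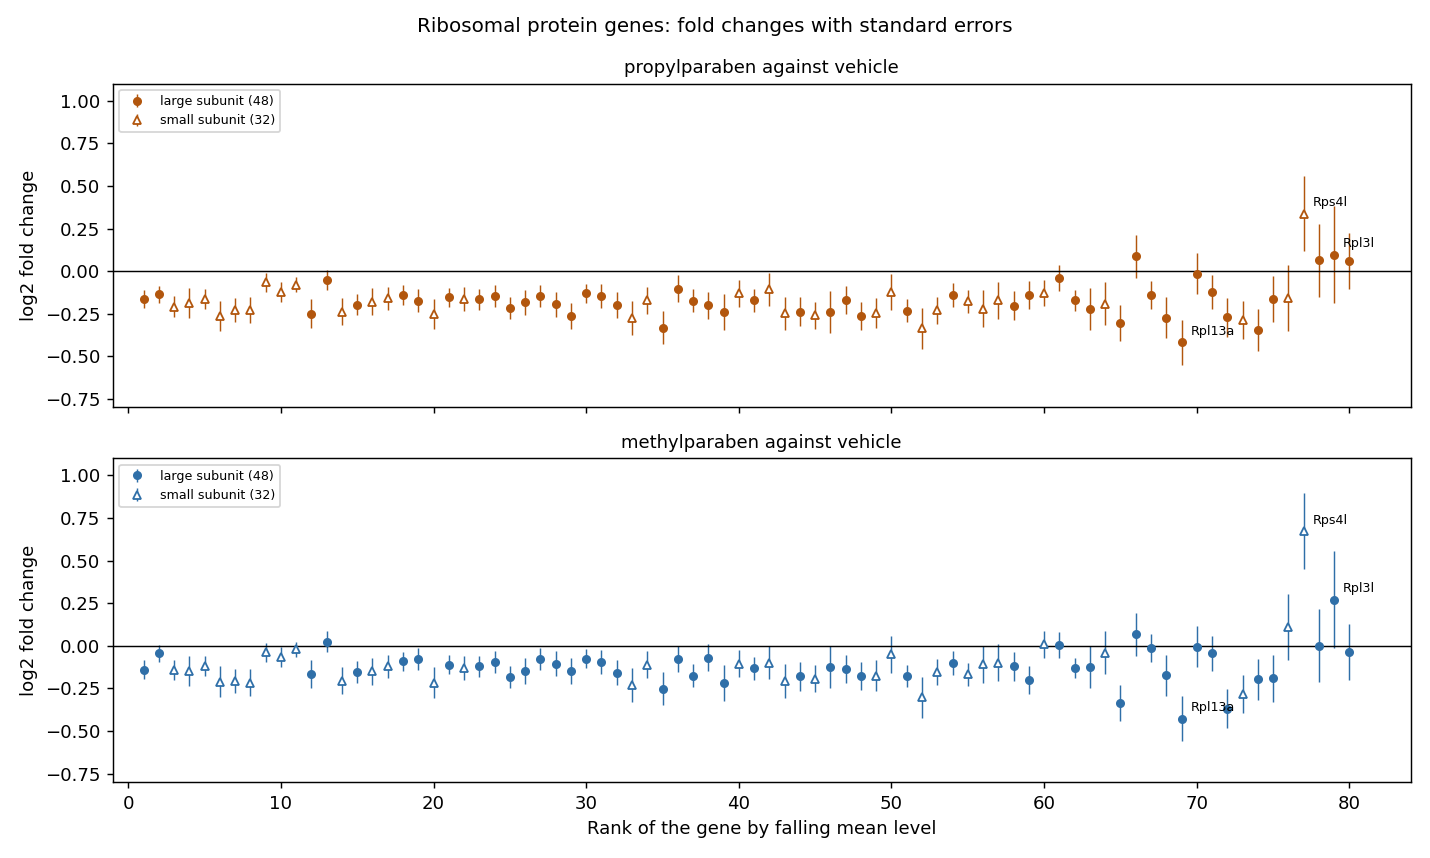
Log2 fold changes of the 80 tested genes, ranked by falling mean level along the x axis, with bars of 1 SE and filled circles for the large (48) and open triangles for the small subunit (32). Above, propylparaben against vehicle with 75 of 80 below 0, and below, methylparaben against vehicle with 72 of 80 below 0; the points far above 0 at the right are Rps4l and Rpl3l.

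By role, the shifts were of like size, except among the copies. The large subunit had a median log2 fold change of -0.17 with propylparaben and -0.12 with methylparaben, and the small subunit of -0.18 and -0.13. The 3 stalk proteins Rplp0, Rplp1 and Rplp2 had -0.14, -0.16 and -0.14 with propylparaben. Rpl5 and Rpl11, which join the ribosome with the 5S RNA, had -0.20 and -0.20. Of the 11 genes mutated in Diamond-Blackfan anemia, among them Rps19, Rps10 and Rpl5, all lay below 0 in both comparisons and none passed, with medians of -0.20 and -0.15. The 5 tested copies had medians of 0.06 with propylparaben and 0.00 with methylparaben.

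The fold change showed little relation to sequence shared with other genes. The median with propylparaben was -0.18 in 27 genes with under 30% of windows shared, -0.18 in 26 genes with 30 to 60% and -0.17 in 22 genes with over 60%. With methylparaben the medians were -0.13, -0.15 and -0.12. Spearman's rho across 75 genes that are no copies was 0.03 for propylparaben and 0.13 for methylparaben, as a description over genes that share their libraries.

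Introns of the same genes ran in the same direction with wider errors. Of 73 introns tested, 60 lay below 0 with propylparaben, against 49% of all introns (median log2 fold change -0.15), and 58 with methylparaben, against 49.3% (median -0.11). None passed, and no intron of any gene did (0% in each comparison). An unadjusted p under 0.05 stood below 0 for 5 introns with propylparaben, against 5.08% of all introns, and for 4 with methylparaben, against 6.18%. Above 0 it stood for 0 introns with propylparaben, against 7% of all introns, and for 2 with methylparaben, against 7.09%. Without the 7 libraries at one end of the first principal component the intron medians were -0.03 and 0.05, so that the methylparaben direction turned. The difference between gene and intron was tested in 46 genes and none passed, against 0% of all 6667 genes. It lay below 0 for 32 of 46 with propylparaben, against 54.5% of all genes, and for 29 with methylparaben, against 50.4%. Unadjusted, 2 were below 0 and 0 above with propylparaben, against 3.78 and 3.49% of all genes, and 3 below and 1 above with methylparaben, against 2.59 and 3.67%. Its medians were -0.04 with propylparaben and -0.06 with methylparaben, and the first was 0.02 without the libraries with a scaling factor under 0.9. Without the 7 libraries at one end of the first principal component they were -0.12 with propylparaben and -0.13 with methylparaben.

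Across tumors the genes varied together. Over 59 libraries, the median Pearson r of the 2850 pairs of the 76 genes was 0.68, and 0.66 with group means removed. It was 0.54 within propylparaben, 0.50 within methylparaben and 0.79 within vehicle, and 0.61 over all libraries but vehicle replicate 1. The mean of the large subunit and the mean of the small subunit had an r of 0.98. Each point shares its library and depth, so these are descriptions.

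Rpl9 and Rpl12 followed the mean of the other genes most closely, with an r of 0.94 each. Rpl10 and Rps6 followed it more loosely, with 0.49 and 0.51. Rps29, of the small subunit head, varied least of the 76 genes, with an SD of 0.13 on the log2 scale, followed by Rpl23a (0.16), Rps9 (0.17), Rpl36a (0.17) and Rplp1 (0.18). Rps6 varied most, at 0.62, with 5.49 to 21.5 in propylparaben, 6.91 to 27.4 in methylparaben and 4.22 to 39.4 in vehicle tumors, then Rpl13a (0.46), Rpl29 (0.43) and Rps27l (0.41). The median SD of the 76 was 0.26, beside 0.29 for all 9143 genes with a mean of at least 10.

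Among 9067 other genes, those most like the mean of the 76 over 59 libraries were the elongation factor gene Eef1b2 (r = 0.93), Naca (0.89), which guards nascent chains at the ribosome, Gm9320 (0.88), the splicing gene Snrpe (0.87) and the initiation factor gene Eif3e (0.84). The farthest were Pcdh1 (-0.77), Fndc3b (-0.75), Glg1 (-0.75), Bcl9l (-0.73) and Rab10 (-0.72).

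The mean ribosomal protein level varied with other measures of the same libraries. Its Pearson r with the mean log2 level of 20 mitosis genes was 0.50 (Spearman's rho 0.46, n = 59), 0.44 without the 2 libraries farthest from the median, and 0.40, 0.23 and 0.55 within propylparaben, methylparaben and vehicle tumors. The mitosis level had medians of 4.94, 4.80 and 5.24 in these groups, and with it as a covariate the median log2 fold change of the 80 genes was -0.11 with propylparaben and -0.04 with methylparaben. Its r with the share of reads aligned to several places was 0.66, and 0.53 without the 2 farthest libraries. That share averaged 12.4 ± 1.01, 12.6 ± 0.517 and 13.2 ± 1.28% in propylparaben, methylparaben and vehicle tumors (SD), and as a covariate, chosen after seeing the data, it gave medians of -0.08 and -0.06. Within methylparaben tumors this r was -0.41, a value that leans on a few libraries with a scaling factor under 0.9. Among them, replicates 1 and 16 had the highest levels of that group, 8.01 and 7.90, at shares of 11.8 and 12.1%. Replicate 5 had the lowest level, 7.33, at a share of 13.8%. The r without these libraries was not computed, so whether the relation holds in methylparaben tumors was not tested. Reads of these genes that match several places are themselves counted in that share. It is therefore not a measure apart from these genes, and the size of this part was not tested.

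**Figure D5:**
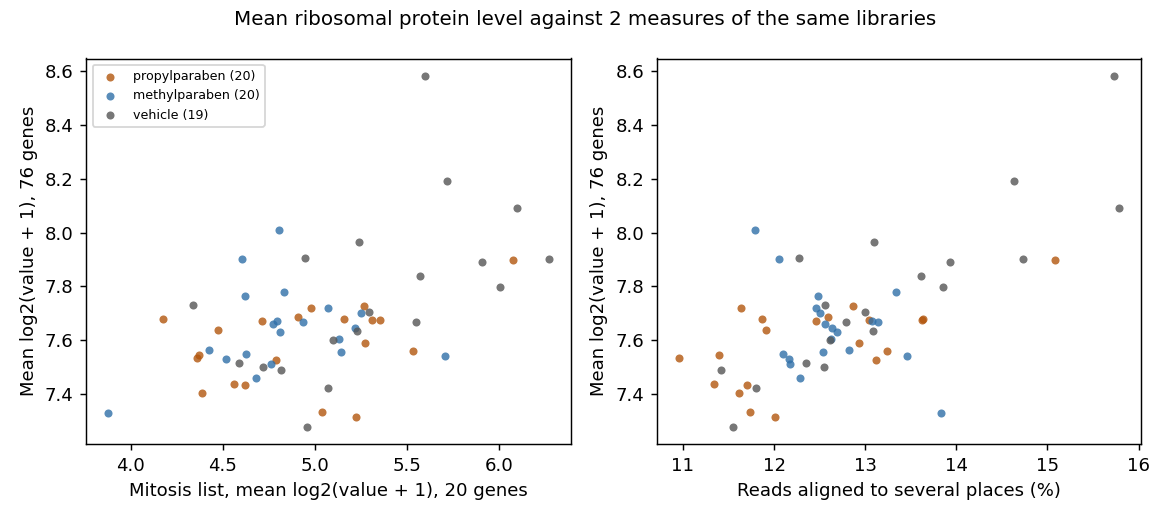
Mean log2(value + 1) of 76 ribosomal protein genes against the mean log2(value + 1) of 20 mitosis genes (left) and against the share of reads aligned to several places (right, %), each point 1 tumor. Pearson r is 0.50 on the left and 0.66 on the right over 59 tumors, and the highest point in both panels is vehicle replicate 1.

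Markers of most cell types, those of the tumor epithelium included, were related to it in the opposite direction. The r with 6 tumor epithelium markers was -0.42 (-0.33, 0.17 and -0.55 within propylparaben, methylparaben and vehicle tumors), and with 6 erythroid markers 0.02. The r with 8 fibroblast markers was -0.58, with 8 endothelial markers -0.52 and with 8 adipocyte markers -0.36. The summed CPM-scaled level of the fibroblast markers was 914 to 6051 in propylparaben, 1460 to 4827 in methylparaben and 411 to 5205 in vehicle tumors, and none of the 8 was at 0 in any group. For adipocyte markers it was 33.8 to 3132 in propylparaben, 33.9 to 11839 in methylparaben and 17.7 to 690.02 in vehicle tumors, again with none of the 8 at 0. With 6 tissue scores as covariates the median log2 fold change was -0.07 with propylparaben and -0.03 with methylparaben. The 6 were those of adipocyte, skeletal muscle, fibroblast, B and plasma cell, T cell and macrophage markers. Tumor epithelium, endothelial and erythroid markers were not among them. The part of these cells in the result was not tested beyond these fits.

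Other genes of the pathway gave context. The symbol rule misses Rps3a1, Rpl36al, Fau, Rack1, Rpl22l1 and Rpl7l1, which are ribosomal protein genes or are named after one. All 6 were tested, lay below 0 in both comparisons and did not pass, Rack1 among them (log2 fold change -0.18 with propylparaben, SE 0.07). Rpl22l1, the copy of Rpl22, stood lowest of them, averaging 123 ± 19.6 in propylparaben tumors and 171 ± 63.8 in vehicle tumors (log2 fold change -0.40, SE 0.11, limma adjusted p = 0.077). The mitochondrial ribosomal protein genes (78, of which 75 were tested), which serve another ribosome, had medians of -0.17 with propylparaben and -0.11 with methylparaben, so that a shift of this size was not confined to the cytosolic genes.

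Ribosome assembly genes held called members with methylparaben, as did 3 other lists. Of all genes tested, 0.635% fell in that comparison. Of the assembly genes 4 of 30 fell and 0 rose: Wdr43, Gnl3, Mrto4 and Nop56, with Nop56, a core protein of box C/D particles, at 22.1 in methylparaben and 31.7 in vehicle tumors (log2 fold change -0.47, SE 0.13, limma adjusted p = 0.046). Of 15 RNA polymerase I genes 1 fell, Polr1c (log2 fold change -0.33, limma adjusted p = 0.036), and of 18 other TOP mRNAs 1 fell, Cct3, a chaperonin subunit (-0.29, limma adjusted p = 0.049). Of 20 mitosis genes 4 fell. None of these calls stands with the mitosis score or the 6 tissue scores as covariates, and in both fits 0 of all genes passed. The mitosis score is the mean of the same 20 mitosis genes, so for the 4 called among them this was fixed in advance. Nor do they stand without the 7 libraries at one end of the first principal component, where 0 of all genes passed. That end is the one with high mitosis levels, so it is no separate check for these 4. With only the 2 groups compared, 0 of all genes were called lower. With propylparaben 0 of these lists had a called member, the smallest limma adjusted p being 0.069.

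Among 8 host genes of small nucleolar RNAs with a TOP start 0 passed in either comparison, with medians of -0.26 in both, and among 16 initiation factor genes 0 passed, with medians of -0.06 in both. The known regulators gave no call. Of 15 genes of mTOR and its TOP branch 0 passed in either comparison, with medians of -0.01 with propylparaben and 0.03 with methylparaben. Larp1 averaged 97.1 in propylparaben, 96.6 in methylparaben and 90.03 in vehicle tumors, and Mtor 23.5 in propylparaben, 24.9 in methylparaben and 22.4 in vehicle tumors. Myc averaged 27.8 in both paraben groups and 30.9 in vehicle tumors (log2 fold change -0.06 with propylparaben and 0.00 with methylparaben, SE 0.19 each). Of 9 genes of the ribosome stress and p53 branch 0 passed, with medians of -0.14 and -0.15.

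The count of these genes with a low unadjusted p was lower without 1 library, with no such count over all genes beside it. The direction did not turn without that library. Without vehicle replicate 1, 74 of 79 genes lay below 0 with propylparaben and 67 of 79 with methylparaben, the count of genes below 0 with an unadjusted p under 0.05 was 39 with propylparaben and 15 with methylparaben, and the medians were -0.13 and -0.09. Vehicle replicate 1 had 25.1% of reads on no feature, 15.7% aligned to several places and 7.31% of gene reads mitochondrial. The medians over 59 libraries were 17.3, 12.6 and 3.53%. That library, with a scaling factor of 0.838, is also among the 5 with a factor under 0.9, so leaving those out is no separate check. Without those 5 the count was 38 and 21 of 79. It was 17 and 2 of 79 without the 7 at one end of the first principal component. The shares of all genes in these fits are not given, so a loss in these genes cannot be told from a loss in all genes. Over all genes, 4 and 34 passed the adjusted p without vehicle replicate 1, 4 and 5 without those 5 libraries, and 0 in both without those 7. Calls also came and went with single tumors, over all genes as well, where 4 passed with propylparaben and 191 with methylparaben in all libraries. Without vehicle replicate 5, 11 genes passed with propylparaben, beside 424 of all genes, and 6 with methylparaben, beside 932 of all genes. Without propylparaben replicate 1, 7 passed with propylparaben, beside 319 of all genes.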

How the data were processed

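Total RNA of 59 flash-frozen tumors was sequenced. Per the submitters' processing notes, bcl2fastq 2.20.0.422, STAR 2.6.1d, GRCm38 and HTSeq 0.10.0 were used; no annotation, strand setting or definition of introns is stated there. The authors deposited 2 tables of a normalized signal, reads on genes and on introns. The gene values are CPM times 1 factor per library (here centred on a geometric mean of 1), so whole reads were recovered (100% of values within 1e-06 reads). Scaling differs between the tables, so gene and intron levels are not set side by side.

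The members and lists were chosen with earlier results of these data known. Genes whose mean reached 1 were tested as log2(value + 1) with limma 3.58.1 (trend, R 4.3.3) in 1 fit of all libraries, which leaves out Rpl10l, Rpl24 and Rpl6l; fold changes on this scale understate the change of low genes. Introns needed a mean of at least 1, and the gene and intron difference a mean of at least 10 in both. Replicate numbers follow record order and no batch is stated. Named genes were those that passed; where fewer than 3 did, the 5 smallest p in each direction; the 5 highest and lowest per kilobase; the 5 largest and smallest SD; the 5 most and least alike; up to 4 per pathway list; and fixed genes, which include Rplp0, Rps6, Rpl5, Rpl11, Myc, Mtor and Larp1. Some genes and results that the rule names are not reported here. Exonic lengths, positions and shared windows come from GENCODE M21 (GRCm38), which held 55240 of 55421 gene identifiers. Intervals are the estimate ± 1.96 SE. In data simulated on these libraries (14487 genes), the propylparaben comparison recovered 77 of 100 genes changed by 0.5 on the log2 scale and 97 of 100 changed by 1, with the methylparaben comparison, in which nothing was changed, giving 0 calls. No change under 0.5 was simulated, and each gene was drawn apart from the others. The simulation therefore does not tell how often shifts like the medians of -0.17 and -0.13 would be called. Alternatives included edgeR 4.0.16 and DESeq2 1.42.0 on recovered reads.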

Additional observations from a re-analysis of the deposited data

How the results depend on the processing

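The count of 0 called genes held under every pseudocount, filter, scaling, covariate and set of groups tried with limma, except for quantile normalization. That called 1 gene, Rplp1, lower with methylparaben, beside 136 of all 14487 genes called lower. On recovered reads DESeq2 called 8 with propylparaben and 4 with methylparaben, and edgeR called 0 and 4. With single libraries left out, 0 to 6 genes passed with methylparaben (10 of 59 fits held a call) and 0 to 11 with propylparaben (5 of 59 fits), while between the esters 0 passed in every fit. The fits with 6 and 11 calls, both without vehicle replicate 5, also called 932 and 424 of all genes. The fits with calls left out vehicle replicates 3, 5, 6, 9, 11, 12, 15 or 17 or methylparaben replicates 1 or 20 for methylparaben, and vehicle replicates 5, 12, 15 or 17 or propylparaben replicate 1 for propylparaben. The median log2 fold change stayed below 0 in all fits, from -0.20 to -0.13 with propylparaben and from -0.15 to -0.09 with methylparaben when 1 library was left out. Without the 5 libraries with a scaling factor under 0.9, vehicle replicate 1 among them, it was -0.13 and -0.10. It was -0.13 and -0.06 without the 7 at one end of the first principal component. Pairwise r and the shares of reads with mitochondrial genes left out of the total moved by less than their spread. Called introns and called differences between gene and intron stayed at 0, but without the 7 libraries the introns below 0 were 39 of 73 with propylparaben and 29 of 73 with methylparaben. No paired analysis was possible because tumors of different groups share no animal, batch or number in the labels. DESeq2 gave no adjusted p for 3 of the 80 genes with propylparaben. Depth limits Rpl3l, Rpl39l, Rpl32l and Rps4l, with 162, 239, 142 and 660 reads over 59 libraries.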
